A study of Mus musculus with 6 samples.

Results

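The genes described here are the enzymes that put methyl groups on histone lysines and those that take them off, 39 genes of the KMT2, SETD, SUV39, EHMT, NSD and KDM families, chosen by name from the 48709 genes of the count table. Of these, 18 encode methyltransferases (writers), 18 encode demethylases (erasers), and Kmt2e, Setd3 and Setd5 encode SET-domain proteins with no agreed histone lysine target. All 39 had enough counts to be tested, among 12722 genes that did. RNA-Seq was performed on G1E-ER4 cells, immature mouse erythroblasts grown as a line from embryonic stem cells. They carry a GATA-1 and estrogen receptor fusion that tamoxifen makes active, and they then mature toward red cells. One group of 3 libraries came from cells given the CHD4-APR peptide, which copies an aggregation-prone stretch of the chromatin remodeler CHD4, and the other group of 3 from cells given a CTRL peptide of alanines. Both peptides carried the Tat sequence and were added at 10 μM for 2 h, and all cells then received tamoxifen for 28 h. The tamoxifen dose is given as 100 nM in the growth protocol and as 100 μM in the description of the experiment. The labels name 1 cell line and do not say whether the libraries of a group came from separate cultures, so the p-values below measure the spread between these libraries, which may be technical.

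Methylation of histone H3 lysines marks different states of chromatin: methylated K4 is found at promoters and enhancers, methylated K36 and K79 along transcribed genes, and methylated K9 and K27 in silenced regions. Most writers carry a SET domain and most erasers a Jumonji C (JmjC) domain, except the flavin-dependent erasers of the KDM1 family. In erythroid cells, KDM1A works with CoREST and GFI1B to silence genes, and CHD4 is the motor of the NuRD complex.

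The libraries held between 41687482 and 49784177 counts, of which the 39 genes took 0.444 to 0.478% with the CTRL peptide and 0.521 to 0.548% with the CHD4-APR peptide. The markers of red cells were abundant in every library, with a summed level of 72500 to 77810 CPM (counts scaled to library size) for 14 of 14 genes in the CTRL libraries and of 61910 to 66000 in the CHD4-APR libraries. Of these 14 genes, 3 (Gata1, Tfrc and Epb42) rose and 6 fell, beside 20.4% and 17.8% of all genes tested. Those with the highest counts were the globins Hbb-bs, which fell from 24751 to 19739 CPM, and Hba-a1, which fell from 15716 to 13212 CPM. After the correction for length and GC content described below, Gata1, Epb42 and Slc4a1 rose and Hbb-bs and Hbb-bt fell. Hbb-bs was then at a log2 fold change of -0.19 (FDR = 0.00320), and Hba-a1 (-0.04, FDR = 0.415) and Tfrc (-0.02, FDR = 0.765) did not pass. The Gata1 counts may include reads from the GATA-1 fusion that the cells carry, which was not tested. The summed level of 11 megakaryocyte markers was 55.7 to 60.1 CPM in the CTRL libraries and 51.6 to 55.3 in the CHD4-APR libraries, with Ppbp, Gp1bb and Vwf at 0 in all 6. That of 12 myeloid and mast cell markers was 9.44 to 10.5 against 7.67 to 8.85 CPM, with Mpo and Mcpt8 at 0, and that of 9 fibroblast markers did not exceed 0.263 CPM, with 7 of them at 0. The part of these marker levels in the results below was not tested, and in bulk RNA fewer cells of a type and less RNA per cell cannot be told apart. Chd4 itself, whose protein the peptide addresses, was at 231 CPM with the CTRL peptide and 240 with the CHD4-APR peptide (log2 fold change 0.05, FDR = 0.322, edgeR's quasi-likelihood test with Benjamini-Hochberg adjustment, as for every FDR below).

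The genes of histone lysine methylation were mostly higher in the cells given the CHD4-APR peptide. At an FDR under 0.05, 23 of the 39 rose, 1 (Kdm4b) fell and 15 did not pass. Of all 12722 genes tested, 38.3% passed, 20.4% as higher and 17.8% as lower. The median log2 fold change of the 39 genes was 0.17, between -0.18 and 0.82, and that of all genes was -0.01. The changes were small: 3 genes, Kdm7a, Kmt2c and Kdm6a, rose at least 1.5-fold and none fell as much. Of all 12722 genes, 443 passed with a rise of that size and 95 with such a fall. The libraries of the groups did not overlap for 29 of the 39 genes, 27 of them higher and 2 lower with the CHD4-APR peptide, against 49.9% of all genes tested.

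**Figure D1:**
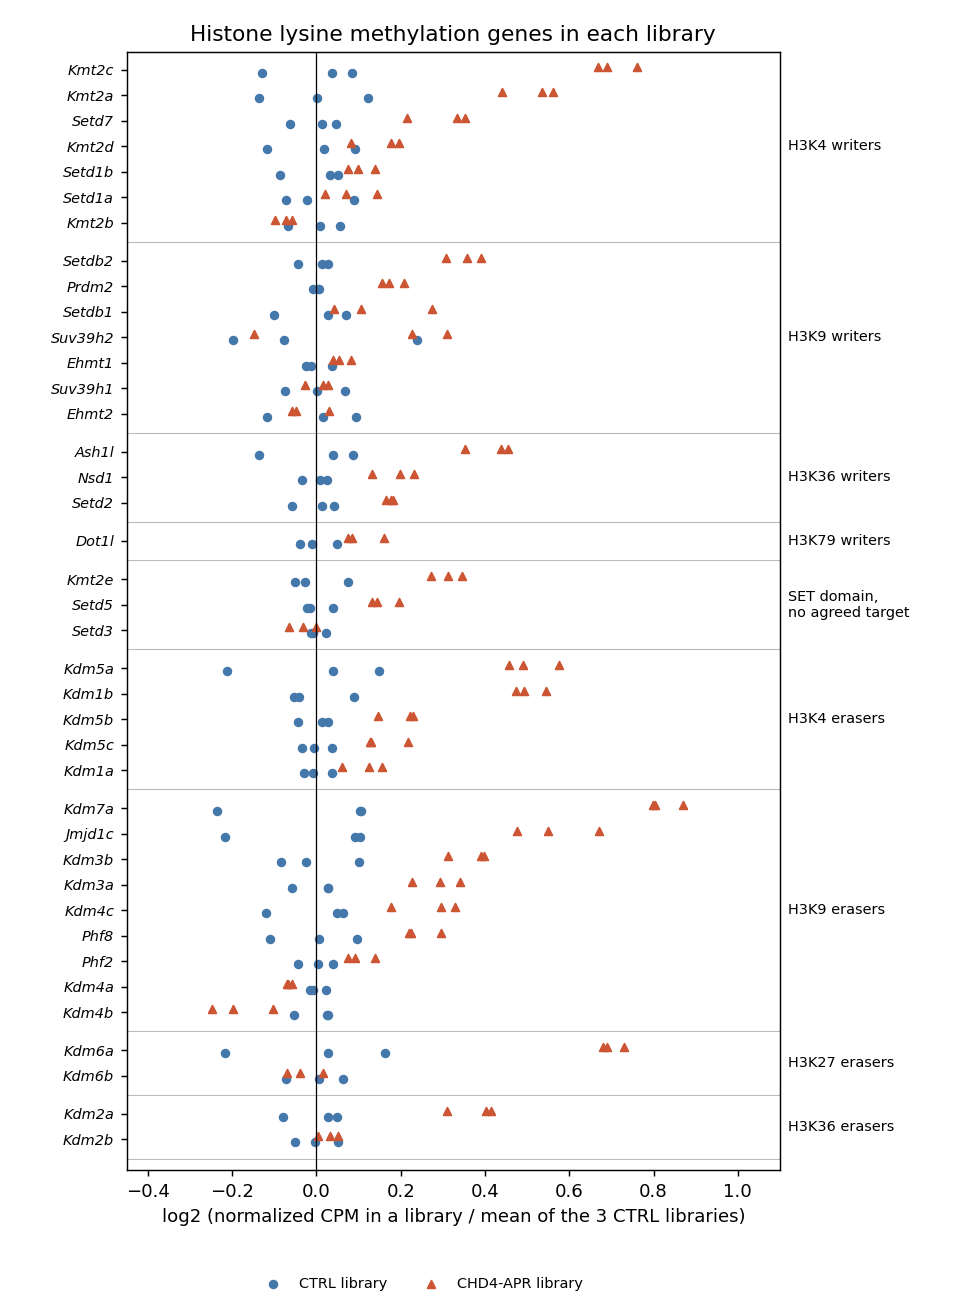
The horizontal axis gives, for each gene on the vertical axis, the log2 ratio of its normalized CPM in a library to the mean of the 3 CTRL libraries; circles are CTRL libraries and triangles CHD4-APR libraries, and genes are grouped by role and target residue. The triangles lie to the right of all circles for 27 of the 39 genes and to the left for Kdm4a and Kdm4b.

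These changes moved with the base composition of the transcripts. Among the 39 genes, the log2 fold change correlated with the GC content of the longest transcript at r = -0.682 and rho = -0.707, and with the logarithm of the exonic length at r = 0.435 and rho = 0.488, where the genes share the same 6 libraries and are not independent. The median exonic length of the 39 genes was 8705 bases, against 3688 bases for all genes tested, while the median GC content was 49.3% against 49.6%. After a correction that smooths each library's values on length and GC content, the median log2 fold change of the 39 genes was 0.09 and that of all genes was -0.02. In that fit 14 of the 39 genes rose and 3 fell, beside 11.8% and 16.3% of the 12677 genes with a known length and GC content. Of the 14, 12 had also risen without the correction, as had 1285 of the 1495 among all genes. After the correction, the log2 fold changes of the 39 genes still correlated with GC content at r = -0.357 and rho = -0.335. With the logarithm of the length they then correlated at r = 0.163 and rho = 0.134. Corrected values are given beside the others below.

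**Figure D2:**
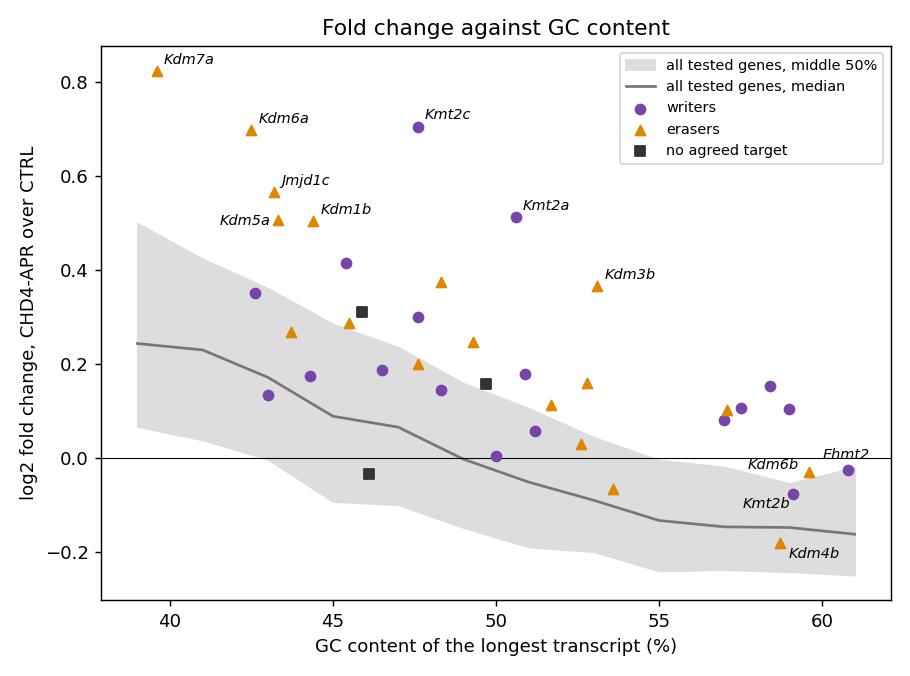
The horizontal axis is the GC content of the longest transcript in percent and the vertical axis the log2 fold change of CHD4-APR over CTRL; purple circles are writers, orange triangles erasers, black squares the genes with no agreed target, and the grey line and band give the median and the middle 50% of all genes tested in bins of GC content. Both the 39 genes and the line fall from left to right, and Kdm7a, Kdm6a, Kmt2c, Kmt2a and Kdm3b are among the genes above the band.

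In bands of GC content, which were chosen after the values were seen, 12 of the genes had a GC content below 46%, and 11 of them rose, with a median log2 fold change of 0.38. Of all genes in that band, 41.5% rose and the median was 0.17. Between 46% and 52% GC, 9 of 14 rose with a median of 0.18, against 18.7% of all genes and a median of 0.00. From 52% GC upward, 3 of 13 rose and 1 fell, with a median of 0.08, against 4.4% higher and a median of -0.13 for all genes. Without the correction, the median of the 39 genes was above that of all genes in each band. After the correction, the medians of the 39 genes were 0.146, 0.072 and 0.036 from the lowest band to the highest.

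Writers and erasers both contained many genes that rose. Of the 18 writers 9 rose and none fell, with a median log2 fold change of 0.15, and of the 18 erasers 12 rose and 1 fell, with a median of 0.26, beside 20.4% of all genes higher and 17.8% lower. After the length and GC correction 4 writers rose and 2 fell, with a median of 0.04, and 10 erasers rose and none fell, with a median of 0.12, beside 11.8% of all genes higher and 16.3% lower. The erasers had a median GC content of 48.8% and the writers of 50.3%. The summed level of the writers was 2056, 1999 and 2135 CPM with the CTRL peptide and 2404, 2346 and 2282 with the CHD4-APR peptide. That of the erasers was 2093, 2166 and 2224 CPM with the CTRL peptide and 2461, 2515 and 2398 with the CHD4-APR peptide. Both sums were higher in every CHD4-APR library than in any CTRL library. The ratio of erasers to writers was 1.02, 1.08 and 1.04 with the CTRL peptide and 1.02, 1.07 and 1.05 with the CHD4-APR peptide, so the groups overlapped.

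By target residue, 4 of 7 H3K4 writers and 4 of 5 H3K4 erasers rose, with median log2 fold changes of 0.15 and 0.20. For H3K9, 2 of 7 writers rose, with a median of 0.13, and 6 of 9 erasers rose and 1 fell, with a median of 0.27. The 28.6% of H3K9 writers that rose is near the 20.4% of all genes tested. All 3 H3K36 writers rose, with a median of 0.19, but their median was -0.10 after the correction and none of them then rose. Of the H3K36 erasers Kdm2a rose and Kdm2b did not, of the H3K27 erasers Kdm6a rose and Kdm6b did not, and the H3K79 writer Dot1l did not pass (log2 fold change 0.11, FDR = 0.0690, and 0.10 after the correction, FDR = 0.0716). After the correction the medians were 0.11 for H3K4 writers, 0.13 for H3K4 erasers, 0.04 for H3K9 writers and 0.11 for H3K9 erasers. Several erasers act on more than 1 residue. With each counted under every known target, the median was 0.03 for 5 H3K36 erasers and 0.70 for 3 H3K27 erasers, and that of the H3K4 erasers was 0.18. After the correction these medians were -0.05, 0.43 and 0.12. These groups are small and no test was made between them.

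Windows around the transcription start were taken from RefSeq (GRCm38.p6) for the 3 genes that changed most and for Kdm4a, to show how far they differ in composition. Each holds 300 bases, 250 before the start and 50 after it, written 5′ to 3′ on the strand of the gene, and capitals mark the GC box GGGCGG, the element bound by SP1 and its relatives, on either strand. The windows lie at chr6:39206724-39207023 on the minus strand for Kdm7a, chr5:25498734-25499033 on the minus strand for Kmt2c, chrX:18162325-18162624 on the plus strand for Kdm6a and chr4:118179994-118180293 on the minus strand for Kdm4a.
Kdm7a: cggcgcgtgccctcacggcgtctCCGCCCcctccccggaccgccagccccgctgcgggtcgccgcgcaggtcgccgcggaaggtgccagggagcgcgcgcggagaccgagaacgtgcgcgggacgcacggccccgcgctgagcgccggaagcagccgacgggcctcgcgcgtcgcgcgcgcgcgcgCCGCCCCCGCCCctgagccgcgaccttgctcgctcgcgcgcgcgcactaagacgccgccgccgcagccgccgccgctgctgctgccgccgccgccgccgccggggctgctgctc
Kmt2c: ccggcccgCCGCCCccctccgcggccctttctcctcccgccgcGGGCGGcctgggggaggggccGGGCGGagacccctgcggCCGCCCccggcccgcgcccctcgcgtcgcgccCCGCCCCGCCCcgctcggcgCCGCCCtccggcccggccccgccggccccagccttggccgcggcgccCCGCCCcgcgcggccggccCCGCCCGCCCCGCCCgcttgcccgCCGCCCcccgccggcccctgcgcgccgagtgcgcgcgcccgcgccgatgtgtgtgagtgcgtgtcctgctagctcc
Kdm6a: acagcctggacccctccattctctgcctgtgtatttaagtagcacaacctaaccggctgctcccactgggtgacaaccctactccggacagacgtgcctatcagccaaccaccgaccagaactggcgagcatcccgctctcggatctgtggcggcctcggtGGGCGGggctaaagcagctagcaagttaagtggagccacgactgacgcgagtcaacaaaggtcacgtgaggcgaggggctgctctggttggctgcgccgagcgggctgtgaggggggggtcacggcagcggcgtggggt
Kdm4a: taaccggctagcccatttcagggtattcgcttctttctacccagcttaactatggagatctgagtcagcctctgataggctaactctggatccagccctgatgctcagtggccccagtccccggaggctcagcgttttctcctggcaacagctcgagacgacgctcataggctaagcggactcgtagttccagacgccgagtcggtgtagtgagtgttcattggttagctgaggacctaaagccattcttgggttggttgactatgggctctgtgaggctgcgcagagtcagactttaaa
The Kdm7a and Kmt2c windows were 82.7% and 88.0% GC with 65 and 56 CpG dinucleotides, although the Kdm7a transcript had the lowest GC content of the 39 genes, 39.6%. Those of Kdm6a and Kdm4a were 63.0% and 53.3% GC, with 21 and 13 CpG. GC boxes numbered 12 in Kmt2c, 3 in Kdm7a, 1 in Kdm6a and 0 in Kdm4a.

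RefSeq windows were matched for 28 of the 39 genes, 38 windows in all because some genes have several starts. The GC box was found in 71.1% of these and in 35.7% of all 32851 windows. The GATA letters AGATAA or TGATAA on either strand were found in 7.9% of them and in 18.6% of all windows, and CCAAT on either strand in 31.6% and 37.4%. The median number of CpG was 28.5 in these windows and 7 in all. None of the 4 windows printed above held the GATA letters. Matches describe the letters in these windows and not binding.

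Among the H3K4 writers, the MLL genes differed from each other. Kmt2c (MLL3; GRCm38 chromosome 5, 25271798 to 25498783), which methylates enhancer nucleosomes, was at 79.5, 89.1 and 92.1 CPM with the CTRL peptide and 140, 147 and 138 CPM with the CHD4-APR peptide. All CHD4-APR libraries were well above all CTRL libraries, and the log2 fold change was 0.71 ± 0.05 (SE, n = 3 per group; FDR = 3.88e-07), or 0.44 after the correction. Kmt2a (MLL1; chromosome 9, 44803355 to 44881296), the writer that maintains Hox gene activity and is rearranged in leukemia, was at 115, 126 and 137 CPM with the CTRL peptide and 182, 186 and 171 CPM with the CHD4-APR peptide. The groups were again apart, with a log2 fold change of 0.51 ± 0.06 (SE; FDR = 6.28e-06), or 0.32 after the correction. Setd7, a monomethyltransferase that also modifies non-histone proteins, rose by a log2 fold change of 0.30 (FDR = 1.75e-04). With the correction it was at 0.11 and did not pass (FDR = 0.0508).

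The closest relatives of these genes are Kmt2b and Kmt2d. Kmt2b (MLL2), the paralog of Kmt2a, was at 162, 153 and 167 CPM with the CTRL peptide and 154, 153 and 150 CPM with the CHD4-APR peptide (log2 fold change -0.08, FDR = 0.198). Its groups overlapped. After the correction its log2 fold change was -0.10 (FDR = 0.0425). Kmt2d (MLL4), the paralog of Kmt2c, was called higher with a log2 fold change of 0.15 (FDR = 0.0301), but its libraries overlapped between the groups. The Kmt2d call was lost without CTRL replicate 2 (FDR = 0.137), without CHD4-APR replicate 1 (FDR = 0.104), without CHD4-APR replicate 2 (FDR = 0.101), with upper quartile scaling (FDR = 0.0515) and with the correction (FDR = 0.549). The SET1 writers Setd1a and Setd1b, which supply much of the trimethylated H3K4 at promoters, had log2 fold changes of 0.08 and 0.11 (0.11 and 0.04 after the correction) and did not pass. Without CTRL replicate 1, Setd1b passed (log2 fold change 0.12, FDR = 0.0406). Setd1a shares 51.9% of its exonic bases with the gene model Gm49388 on the same strand, so its counts are uncertain.

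**Figure D3:**
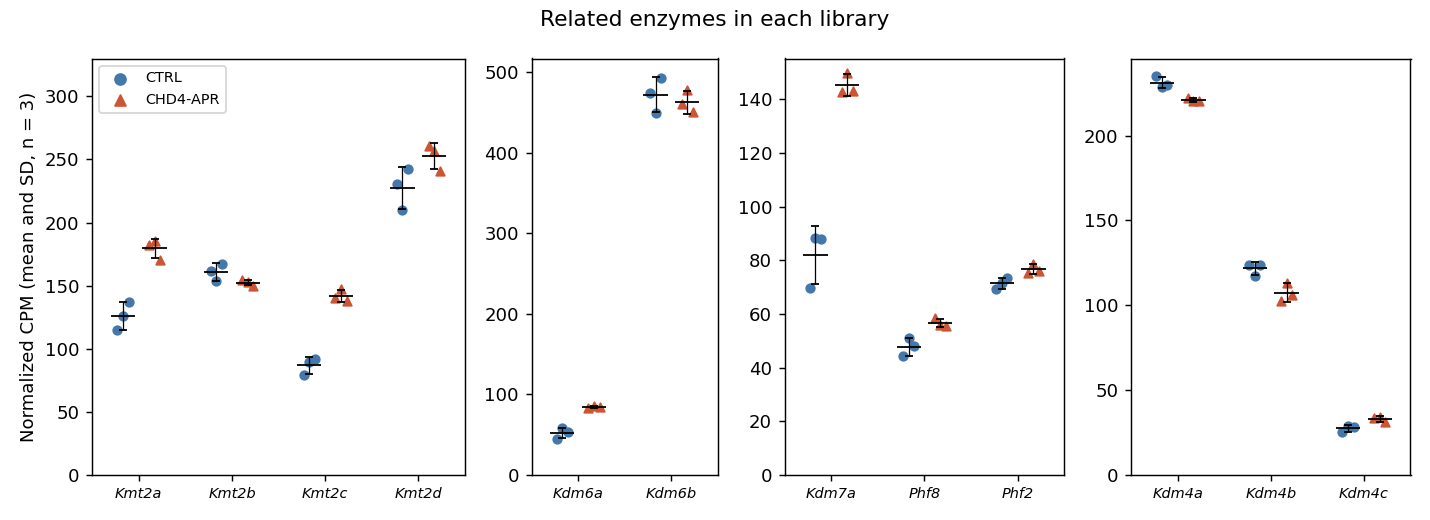
The vertical axes give the normalized CPM of related enzymes in each library, starting at 0 in every panel; circles are CTRL libraries, triangles CHD4-APR libraries, and bars the mean and SD of 3 libraries. Kmt2a and Kmt2c are higher in all CHD4-APR libraries while Kmt2b and Kmt2d overlap, and Kdm6a, but not the more abundant Kdm6b, is higher.

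Among the H3K9 writers, Setdb2 and Prdm2 rose. Setdb2 (chromosome 14, 59402009 to 59440884), a relative of the trimethylase SETDB1, was at 21.1, 21.9 and 22.2 CPM with the CTRL peptide and 27.8, 28.5 and 26.9 CPM with the CHD4-APR peptide. The groups were apart, with a log2 fold change of 0.35 ± 0.06 (SE; FDR = 2.92e-04), or 0.19 after the correction. Prdm2 (RIZ1) rose by a log2 fold change of 0.18 (FDR = 0.00433) and by 0.11 after the correction. Setdb1, which silences retroelements together with TRIM28, had a log2 fold change of 0.14 and just missed the threshold (FDR = 0.0596). Setdb1 passed with DESeq2 (adjusted p = 0.0471), with no filter on low counts (FDR = 0.00896), with a replicate block (FDR = 0.0118), without CTRL replicate 1 (FDR = 0.0192) and without CHD4-APR replicate 2 (FDR = 0.0285). Its log2 fold change was 0.04 with the correction (FDR = 0.683), 0.08 without CHD4-APR replicate 1 (FDR = 0.314) and 0.09 without CTRL replicate 2 (FDR = 0.222). The heterochromatin writers Suv39h1 and Suv39h2 and the euchromatic dimethylases Ehmt1 (GLP) and Ehmt2 (G9a) had log2 fold changes between -0.03 and 0.13 and FDR values of at least 0.417. After the correction they were between -0.03 and 0.04 and did not pass. Suv39h2 had 743 counts in all 6 libraries together, so its standard error was 0.16, and 8.1% of its exonic bases overlap Dclre1c on the other strand.

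Of the H3K36 writers, Ash1l (chromosome 3, 88950622 to 89079375), a dimethylase that opposes Polycomb silencing, was at 42.4, 49.5 and 47.8 CPM with the CTRL peptide and 63.1, 63.9 and 59.5 CPM with the CHD4-APR peptide. The groups were apart, and the log2 fold change was 0.42 ± 0.06 (SE; FDR = 5.69e-05). After the correction it was 0.12 (FDR = 0.0509). Nsd1, another dimethylase, and Setd2, the trimethylase that travels with RNA polymerase II, rose by log2 fold changes of 0.19 and 0.17. Their direction turned with the correction, to -0.10 for Nsd1 (FDR = 0.0768) and -0.10 for Setd2 (FDR = 0.0434). Setd2 was the only one of the 39 genes called in opposite directions by the fits with and without the correction.

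Of the genes with no agreed histone target, 2 of 3 rose, beside 20.4% of all genes, and after the correction none rose and 1 fell, beside 11.8% and 16.3%. Kmt2e (MLL5; chromosome 5, 23434441 to 23504235), a reader of methylated H3K4 needed in blood stem cells, was at 176, 179 and 193 CPM with the CTRL peptide and 227, 232 and 221 CPM with the CHD4-APR peptide. The groups did not overlap, with a log2 fold change of 0.31 ± 0.05 (SE; FDR = 7.21e-05), or 0.08 after the correction (FDR = 0.131). Of its exonic bases, 9.31% overlap Srpk2 on the other strand. Setd5 rose by a log2 fold change of 0.16 (FDR = 0.00822), and was at -0.06 after the correction. Setd3, which methylates a histidine of actin, was at -0.03 (FDR = 0.582), and fell by 0.17 on the log2 scale after the correction (FDR = 0.00270).

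Among the erasers, the largest rise was that of Kdm7a (chromosome 6, 39136623 to 39206789), which removes methyl groups from H3K9 and H3K27. Kdm7a was at 69.6, 88.3 and 88.1 CPM with the CTRL peptide and 143, 150 and 143 CPM with the CHD4-APR peptide. CTRL replicate 1 was the lowest, and every CHD4-APR library was above every CTRL library. The log2 fold change was 0.82 ± 0.07 (SE; FDR = 8.87e-07), a rise of 1.77-fold, and 0.46 after the correction (FDR = 9.16e-06). Leaving out any 1 library gave log2 fold changes from 0.72 to 0.88. Its relatives changed less: Phf8, which also acts on H4K20, rose by a log2 fold change of 0.25 (FDR = 0.00275), and Phf2 was at 0.10 (FDR = 0.0973). After the correction Phf8 was at 0.11 (FDR = 0.0888) and Phf2 at 0.16 (FDR = 0.0125).

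Of the H3K27 erasers, Kdm6a (UTX; chromosome X, 18162575 to 18279936), which works within the MLL3 and MLL4 complexes, was at 44.7, 58.2 and 53.0 CPM with the CTRL peptide and 83.3, 86.1 and 83.8 CPM with the CHD4-APR peptide. The groups were far apart, with a log2 fold change of 0.70 ± 0.07 (SE; FDR = 2.56e-06), or 0.43 after the correction. Kdm6b (JMJD3), an eraser known for its induction by signals, was at 474, 449 and 493 CPM with the CTRL peptide and 460, 478 and 450 CPM with the CHD4-APR peptide. Its groups overlapped (log2 fold change -0.03, FDR = 0.641, and 0.00 after the correction, FDR = 0.961). Per length, Kdm6b had the highest level of the 39 genes in the CTRL libraries, 67.9 RPKM (CPM divided by the exonic length in kilobases), and Kdm6a was at 6.20 RPKM.

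The H3K4 erasers were higher in every CHD4-APR library than in any CTRL library for all 5 genes, where 49.9% of all genes tested had no overlap in either direction. Kdm5a (RBP2; chromosome 6, 120364124 to 120444574), an eraser of trimethylated H3K4, was at 85.2, 109 and 101 CPM with the CTRL peptide and 139, 147 and 135 CPM with the CHD4-APR peptide. The log2 fold change was 0.51 ± 0.07 (SE; FDR = 3.62e-05), and 0.17 after the correction (FDR = 0.0153). Kdm1b (LSD2; chromosome 13, 47043499 to 47085279), the flavin-dependent eraser known from oocytes, was at only 2.69, 2.71 and 2.97 CPM with the CTRL peptide and 4.07, 3.93 and 3.88 CPM with the CHD4-APR peptide. The log2 fold change was 0.50 ± 0.12 (SE; FDR = 0.00442), or 0.34 after the correction (FDR = 0.0487). This value is uncertain: Kdm1b had 904 counts in all, and 9.19% of its exonic bases overlap Dek, a gene on the other strand with 49765 counts, in libraries whose kit does not mark the strand. Kdm1a (LSD1), its abundant paralog, had a log2 fold change of 0.11 and missed the threshold (FDR = 0.0558). Kdm1a passed without CHD4-APR replicate 3 (FDR = 0.0443) and with the correction (log2 fold change 0.12, FDR = 0.0362). Kdm5b and Kdm5c rose by log2 fold changes of 0.20 and 0.16. After the correction Kdm5b was at -0.06 (FDR = 0.247) and Kdm5c at 0.13 (FDR = 0.0120). The Kdm5c call was lost without CHD4-APR replicate 1 (FDR = 0.0502).

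The H3K9 erasers of the KDM3 family rose together. Jmjd1c (chromosome 10, 67096125 to 67256326), a partner of leukemic transcription factors, was at 44.2, 55.2 and 54.7 CPM with the CTRL peptide and 71.4, 81.7 and 75.1 CPM with the CHD4-APR peptide. The groups were apart, with a log2 fold change of 0.57 ± 0.07 (SE; FDR = 2.36e-05), or 0.20 after the correction (FDR = 0.0112). Kdm3b (chromosome 18, 34777047 to 34838660) was at 102, 106 and 116 CPM with the CTRL peptide and 142, 142 and 134 CPM with the CHD4-APR peptide. It was higher in every CHD4-APR library, with a log2 fold change of 0.37 ± 0.05 (SE; FDR = 4.50e-05), or 0.23 after the correction. Of its exonic bases, 24.6% overlap Gm26538 on the other strand, a gene model with 66 counts. The Kdm3b GC content of 53.1% was the highest of the 12 genes with the largest rises. Kdm3a, a hypoxia-induced eraser, rose by a log2 fold change of 0.29 (FDR = 2.11e-04), and was at 0.09 after the correction (FDR = 0.0990).

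The KDM4 family, erasers of trimethylated H3K9 and H3K36, held genes that moved in opposite directions. Kdm4b (chromosome 17, 56326062 to 56402870) was at 124, 117 and 124 CPM with the CTRL peptide and 103, 113 and 106 CPM with the CHD4-APR peptide. The libraries did not overlap, and Kdm4b fell by 0.18 ± 0.05 on the log2 scale (SE; FDR = 0.00724). The call was lost without CHD4-APR replicate 1 (log2 fold change -0.15, FDR = 0.0524) and with the correction (-0.10, FDR = 0.0832). Kdm4a was lower in every CHD4-APR library, at 231 CPM on average in the CTRL libraries and 221 in the CHD4-APR libraries, but did not pass (log2 fold change -0.07, FDR = 0.221, and -0.05 after the correction, FDR = 0.295). Kdm4c, the least abundant of the 3, rose by a log2 fold change of 0.27 (FDR = 0.00435), and was at 0.08 after the correction (FDR = 0.329).

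Of the H3K36 erasers, Kdm2a (chromosome 19, 4314419 to 4398285), which binds unmethylated CpG islands, was at 115, 124 and 126 CPM with the CTRL peptide and 162, 161 and 151 CPM with the CHD4-APR peptide. The groups were apart, with a log2 fold change of 0.38 ± 0.05 (SE; FDR = 2.10e-05), or 0.15 after the correction (FDR = 0.00527). Kdm2b, which brings Polycomb complexes to CpG islands, was at a log2 fold change of 0.03 (FDR = 0.646), and at -0.07 after the correction (FDR = 0.223).

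In the 12 rising genes given above by library, CTRL replicate 1 was the lowest of the CTRL libraries each time, and it was the lowest in 20 of all 23 genes that rose. CHD4-APR replicate 3 was the lowest CHD4-APR library in 18 of the 23. The lowest library was not counted over all genes, so these counts are not particular to the 39 genes as far as is known. Without CTRL replicate 1, 25 of the 39 genes rose and 1 fell, beside 2317 higher and 1872 lower of all 12973 genes in that fit. Without CHD4-APR replicate 3, 24 rose and 1 fell, beside 2365 higher and 1769 lower of all 12927 genes.

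**Figure D4:**
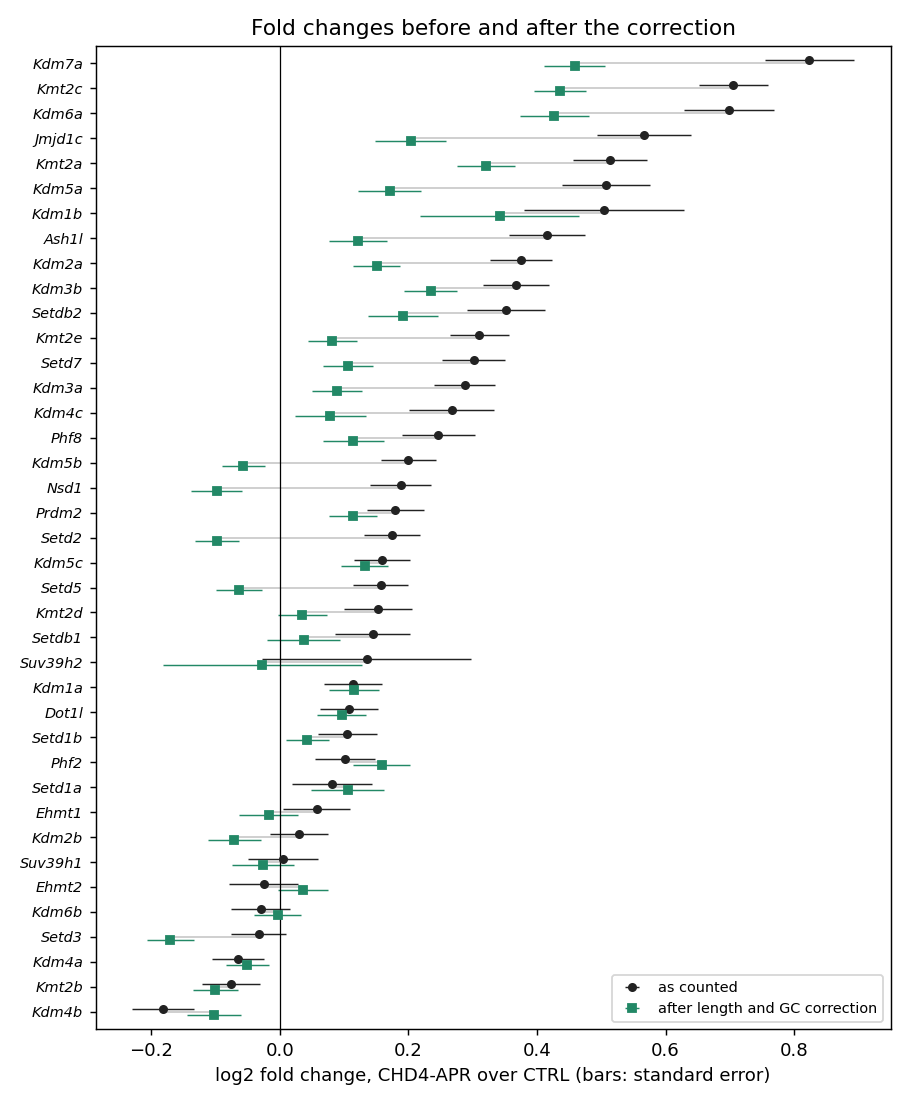
The horizontal axis is the log2 fold change of CHD4-APR over CTRL with its standard error, for each of the 39 genes on the vertical axis; black circles are values as counted and green squares those after the length and GC correction. Kdm7a, Kmt2c, Kdm6a, Kdm1b and Kmt2a stay above 0.32 after the correction. The sign turns for 9 of the 39 genes, and for 2574 of the 12677 genes with a known length and GC content.

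The ratio of related enzymes within a library was compared in 21 pairs from 13 families. In 12 pairs the log2 ratio did not overlap between the groups, each with p = 0.1 in the two-sided exact permutation test, the smallest value that 3 against 3 libraries allow, and p = 0.175 after adjustment over the 21 pairs. The log2 ratio of Kdm6a to Kdm6b was -3.41, -2.95 and -3.22 with the CTRL peptide and -2.47, -2.47 and -2.43 with the CHD4-APR peptide, a mean difference of 0.74. That of Kmt2a to Kmt2b was -0.50, -0.28 and -0.29 with the CTRL peptide and 0.24, 0.28 and 0.19 with the CHD4-APR peptide, a mean difference of 0.59. These ratios are not per length and are compared only between the groups. Per length, Kmt2a was below Kmt2b in both groups, at 7.54 against 16.7 RPKM with the CTRL peptide and 10.8 against 15.9 RPKM with the CHD4-APR peptide. The mean difference was 0.73 for Kdm7a to Phf2, 0.58 for Kdm7a to Phf8, 0.55 for Kmt2c to Kmt2d and 0.45 for Kdm4c to Kdm4b. In 19 of the 21 pairs the gene with the larger log2 fold change had the lower GC content. After the correction 15 of the 21 differences kept their sign, among them Kdm6a to Kdm6b (0.43), Kmt2a to Kmt2b (0.42) and Kmt2c to Kmt2d (0.40).

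Levels per length spanned a wide range among the 39 genes. After Kdm6b, the highest in the CTRL libraries were Setdb1 at 42.7 RPKM, Kdm4a at 40.0, Setd1b at 25.3 and Kdm5c at 25.3 RPKM. The lowest were Kdm1b at 0.508 RPKM and Suv39h2 at 0.595 RPKM, followed by Jmjd1c at 2.88 RPKM. Of the 39 genes, 17 share exonic bases with another gene, 3 of them (Setd1a, Kdm3b and Suv39h1) over 10% of their own, and reads from the shared bases on opposite strands cannot be told apart. For Suv39h1 the share was 14.6%, with the gene model Gm14820, which had 122 counts.

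Subunits and partners of these enzymes were listed by role, and their counts stand beside 20.4% of all genes higher and 17.8% lower, or 11.8% and 16.3% after the correction. Of the 11 tested subunits of the COMPASS and MLL complexes, the scaffolds of H3K4 writers, 6 rose and 1 fell, with a median log2 fold change of 0.18. After the correction 3 rose and 1 fell, with a median of 0.06. The largest rises were those of the chromatin tether Psip1 (0.40, FDR = 2.06e-04), the coactivator Ncoa6 (0.27, FDR = 7.06e-04) and the SET1 subunit Wdr82 (0.22, FDR = 0.00692), while the CpG-binding subunit Cxxc1 fell by 0.18 (FDR = 0.00678). After the correction Psip1 (0.21, FDR = 0.00809) and Ncoa6 (0.14, FDR = 0.0277) passed, and Wdr82 (0.12, FDR = 0.0857) and Cxxc1 (-0.07, FDR = 0.202) did not. Of the core subunits, Rbbp5 rose by 0.18 (FDR = 0.0181; 0.13 after the correction, FDR = 0.0532), and Wdr5, Ash2l and Dpy30 were between 0.00 and 0.02 and did not pass. After the correction Ash2l fell by 0.25 (FDR = 2.04e-04). Among 6 partners of DOT1L, 4 rose and none fell, with a median of 0.26, and after the correction 3 rose and none fell, with a median of 0.16. The elongation factor scaffolds Aff4 (0.57, FDR = 4.94e-06) and Aff1 (0.34, FDR = 2.18e-05) and the DOT1L cofactor Mllt10 (0.39, FDR = 1.30e-04) led them. All 3 also rose after the correction, Aff4 by 0.27, Aff1 by 0.23 and Mllt10 by 0.26.

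Of 10 partners of H3K9 methylation, including the HP1 proteins that bind it, 5 rose and none fell, with a median of 0.23, beside 20.4% of all genes higher and 17.8% lower. After the correction 3 rose and 1 fell, with a median of 0.01. The largest were Zfp644 (0.60, FDR = 2.33e-06), a zinc finger protein of the G9a complex, Cdyl (0.30, FDR = 7.72e-04), a chromodomain reader, and the HP1 gene Cbx1 (0.29, FDR = 0.00189). After the correction Zfp644 was at 0.17 (FDR = 0.0463), Cdyl at 0.31 (FDR = 4.21e-04) and Cbx1 at 0.18 (FDR = 0.0221). The HP1 gene Cbx3, at 0.11 without the correction (FDR = 0.0622), was the one that fell with it, by 0.19 (FDR = 0.00213). Of 11 subunits of the LSD1-CoREST complex, 5 rose and 2 fell, with a median of 0.12, where the share that fell is near that of all genes. After the correction 3 rose and 1 fell, with a median of 0.02. Rcor3 (0.52, FDR = 1.91e-04), a CoREST paralog, and Zmym2 (0.51, FDR = 6.99e-06) rose, but after the correction Rcor3 did not pass (0.19, FDR = 0.0865) and Zmym2 was at 0.18 (FDR = 0.0132). In contrast, Gfi1b, the repressor that recruits LSD1 in red cell precursors, fell by 0.38 on the log2 scale (FDR = 1.15e-05) and by 0.21 after the correction (FDR = 0.00171).

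Related enzymes outside the 39 genes were listed as well. Of 12 other histone lysine methyltransferases tested, 2 rose and 1 fell, with a median of 0.01. These 16.7% that rose are near the 20.4% of all genes, and after the correction none rose and 4 fell, with a median of -0.04. Without the correction the called genes were Nsd3 (0.37, FDR = 1.28e-05), a paralog of Nsd1, and the H4K20 writers Kmt5b (0.22, FDR = 0.00568) and Kmt5c, which fell by 0.22 (FDR = 8.14e-04). With it, the rises of Nsd3 (0.10, FDR = 0.0592) and Kmt5b (-0.04, FDR = 0.623) were lost, and Kmt5c fell by 0.11 (FDR = 0.0235). Of 12 other JmjC proteins, 3 rose and 2 fell, with a median of 0.02, and after the correction 2 rose and 2 fell, with a median of 0.07. These counts of 12 are near the shares of all genes that rose (20.4%) and fell (17.8%). The largest called changes were those of Rsbn1 (0.56, FDR = 4.35e-06), Rsbn1l (0.45, FDR = 1.05e-05) and Hr, the hairless corepressor, which fell by 0.36 (FDR = 0.00948). All 3 were also called after the correction, at 0.29 for Rsbn1, 0.16 for Rsbn1l and -0.34 for Hr.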

How the data were processed

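RNA-Seq was performed on 6 samples of the G1E-ER4 line, 3 per group, with poly(A) selection and, per the labels, a TruSeq RNA kit that does not mark the strand. The authors trimmed reads with Cutadapt, aligned them with STAR 2.7.10a to GRCm38 and used featureCounts to count reads in Ensembl genes. The deposited values are raw counts, not normalized, and the strandedness of the counting is not given in the sources used here. Another 2 columns of the table match no sample and were not used.

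Genes were named with GENCODE M21 on GRCm38, which held 48349 of 48709 identifiers. Counts were analysed with edgeR 4.0.16 in R 4.3.3: filterByExpr, TMM scaling and the two-sided quasi-likelihood F-test over 12722 genes, adjusted by Benjamini-Hochberg, at an FDR under 0.05. CPM values are TMM-normalized, and each standard error is the log2 fold change over the root of its F statistic. For the length and GC correction, log2 CPM (prior count 2) was smoothed per library on exonic length and GC content of the longest transcript (mgcv 1.9.3) and the fitted trend entered edgeR as an offset. The edgeR, DESeq2 and limma-voom fits were tested on simulated counts with known changes. The correction was tested on simulated counts with a GC trend, and the other steps were not simulated. Total counts were 41687482 to 49784177 per library and the common biological coefficient of variation was 0.0518. No replicate pair agreed within sampling noise.

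Alternatives were DESeq2 1.42.0, limma-voom (limma 3.58.1), other scalings and filters, protein-coding genes only, no hemoglobin genes, a replicate block, the correction, an FDR under 0.01 and leaving out each library. Every member is named. Values in every library are given for the 12 largest called changes and every member called lower, and of each partner list the 3 largest called changes are named. Beyond these rules, the library values of Kmt2b and Kdm6b and the genes Cxxc1, Wdr5, Ash2l, Dpy30, Rbbp5, Cbx3, Hbb-bt, Slc4a1, Gata1, Tfrc and Epb42 were chosen after their values were seen. The members, their roles and the lists were chosen with earlier results of these data known. Untreated cells and the protein data were not analysed here, and the value of 1 marker gene is not reported here.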

Additional observations from a re-analysis of the deposited data

How the results depend on the processing

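The number of genes of histone lysine methylation that rose (23) was within 1.5 times of that value under DESeq2, limma-voom, the other scalings and filters, an FDR under 0.01 and each left-out library. The length and GC correction gave 14 higher and 3 lower, and with the replicate block added 4 lower. It moved the median log2 fold change of writers to 0.04001 (0.03967 with the replicate block) and of erasers to 0.1238 (0.1237). Leaving out each library gave 0 to 1 genes lower, with 0 without CHD4-APR replicate 1, and a writers' median of 0.135 to 0.1769. Under every known target the median of H3K36 erasers was 0.0294 and of H3K27 erasers 0.6983, or -0.0507 and 0.427 after the correction.

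The sign turned with the correction, alone and with the replicate block, for Suv39h1 (-0.0262, -0.0257), Suv39h2 (-0.0271, -0.0210), Ehmt1 (-0.0174, -0.0168), Ehmt2 (0.0356, 0.0356), Setd2 (-0.0979, -0.0980), Nsd1 (-0.0980, -0.0984), Setd5 (-0.0629, -0.0631), Kdm5b (-0.0565, -0.0565) and Kdm2b (-0.0705, -0.0699). With the correction alone, the sign turned for 2574 of all 12677 genes in that fit. Suv39h1 was at -0.0119 with upper quartile scaling and -0.0042 with protein-coding genes only. Leaving out 1 library gave -0.0303 to 0.0395 for Suv39h1, -0.0820 to 0.0241 for Ehmt2 and -0.0662 to 0.0016 for Kdm6b. The cause was not tested.

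Same-numbered libraries deviated together with correlations of 0.07, 0.055 and -0.035, against -0.081 to 0.034 for the other pairs. The labels do not say whether the numbers pair the samples, and values this small cannot decide it. Without the correction, the replicate block gave 25 genes called, 24 of them higher, and changed no call but that of Setdb1. With the correction it gave 20 called, 16 of them higher, beside 4041 called and 1690 higher of all 12677 genes. Kdm1b was then lost (FDR = 0.0562), and Setd7 (FDR = 0.0315), Ash1l (FDR = 0.0313) and Dot1l (FDR = 0.0419) were among those gained. Of the 24 called genes, 10 kept their call and direction in all alternatives: Jmjd1c, Kdm2a, Kdm3b, Kdm5a, Kdm6a, Kdm7a, Kmt2a, Kmt2c, Prdm2 and Setdb2. Of all genes called, 53.4% were higher, against 48.2% with upper quartile scaling and 42% with the correction.

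The depth limits Kdm1b and Suv39h2, with 904 and 743 counts in all, most. No batch is given, so a batch that follows the groups and the peptide cannot be told apart.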
